A study of Mus musculus with 32 samples.

Results

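Activity-regulated immediate early genes are transcribed in neurons within minutes of synaptic activity, without new protein synthesis. A set of 37 such mouse genes was chosen by gene symbol from the annotated table of 56415 genes, and all 37 were present and tested in every comparison. They were sorted by known role into 18 nuclear factors, Arc, 11 feedback regulators and 7 secreted or synaptic effectors that appear later. RNA was measured in offspring of C57BL/6J mice, either WT or ACSS2 KO. The KO allele, and the cells in which it is deleted, are not given in the labels. ACSS2 makes acetyl-CoA from acetate, a product of ethanol breakdown. Dams were housed with studs for 5 nights. They then received 1 intraperitoneal injection each day until birth, of 3 g/kg ethanol as a 20% solution by volume or of saline. Pups were weaned at postnatal day 21 and killed at day 40 to 50, so every value was taken weeks after the last injection, in mice with no labelled stimulus. Each of 16 mice gave 1 dorsal hippocampus and 1 cerebellar vermis library. The 4 conditions, WT saline, WT ethanol, KO saline and KO ethanol, had 4 mice each, with 2 females (F1, F3) and 2 males (M1, M3). No label gives the litter of a mouse, so p-values measure the spread between mice that may share a litter.

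Synaptic calcium entry activates kinases that phosphorylate CREB and serum response factor partners, and these switch on the first genes. The AP-1 proteins (such as FOS and JUN), the zinc-finger EGR factors, the orphan nuclear receptors of the NR4A family and the neuron-specific factor NPAS4 then act on later genes. Phosphatases and other inhibitors made in the same wave, such as DUSP1, which removes phosphate from MAP kinases, shut the signal down. The later products change synapses: HOMER1A uncouples glutamate receptors from their scaffold, NPTX2 gathers AMPA receptors, and VGF and SCG2 are packed into secretory granules.

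Some of the response elements known for these genes lie near the transcription start, and others are distant enhancers that were not examined. RefSeq (GRCm38.p6, not the build of the counts) gave a promoter of 300 bases, 250 before the start and 50 after it, for 27 of the 37 genes. The core of the cAMP response element bound by CREB, TGACG on either strand, was in 16 of the 27 (59.3%) and in 21% of all 27025 promoters of the same length. It was in 10 of 15 nuclear factors, 3 of 8 feedback regulators and 3 of 4 delayed effectors. The full element TGACGTCA, which contains that core, was in Btg2, Dusp1 and Scg2 (11.1%, against 1.88% of all promoters). The EGR site GCGNGGGCG was in 7 (25.9%, against 5.55%), namely Fosb, Fosl2, Nr4a1, Nr4a2, Btg2, Gadd45b and Rgs2. Neither the AP-1 site TGANTCA (7.93% of all promoters) nor the CArG box (1.57%) was found in these 27 windows. A match is a string of letters and not a measured binding site. The 6 promoters below belong to genes described in the results and were chosen after their values were seen. They are read in the direction of transcription, and capitals mark the CRE core on either strand (CGTCA where it lies on the other strand), or the EGR site in Fosl2.
Fos, chr12:85473640-85473939, plus strand: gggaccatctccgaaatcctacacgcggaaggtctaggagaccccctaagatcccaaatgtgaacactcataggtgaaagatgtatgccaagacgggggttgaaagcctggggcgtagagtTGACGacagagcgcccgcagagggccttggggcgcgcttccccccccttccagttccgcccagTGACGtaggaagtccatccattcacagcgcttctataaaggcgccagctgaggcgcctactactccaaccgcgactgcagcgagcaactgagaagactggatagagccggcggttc
Npas4, chr19:4989922-4990221, minus strand: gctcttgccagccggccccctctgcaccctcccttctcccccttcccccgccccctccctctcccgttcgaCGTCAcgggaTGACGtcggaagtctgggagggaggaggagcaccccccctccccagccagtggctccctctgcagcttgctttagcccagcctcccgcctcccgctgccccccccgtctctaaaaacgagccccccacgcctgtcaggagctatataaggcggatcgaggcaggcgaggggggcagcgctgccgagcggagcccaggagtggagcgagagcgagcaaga
Nr4a3, chr4:48045055-48045354, plus strand: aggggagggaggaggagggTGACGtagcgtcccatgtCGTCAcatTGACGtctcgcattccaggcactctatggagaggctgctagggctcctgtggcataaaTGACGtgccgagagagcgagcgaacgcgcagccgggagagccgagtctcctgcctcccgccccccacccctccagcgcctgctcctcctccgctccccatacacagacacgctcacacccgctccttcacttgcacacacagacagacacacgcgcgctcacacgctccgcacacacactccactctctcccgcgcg
Fosl2, chr5:32136222-32136521, plus strand: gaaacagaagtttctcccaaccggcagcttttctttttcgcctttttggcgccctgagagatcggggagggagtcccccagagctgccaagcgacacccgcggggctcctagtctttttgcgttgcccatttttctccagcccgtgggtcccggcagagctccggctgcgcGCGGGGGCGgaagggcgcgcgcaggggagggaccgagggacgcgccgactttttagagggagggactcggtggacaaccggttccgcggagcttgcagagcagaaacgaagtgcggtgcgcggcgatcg
Homer1, chr13:93303507-93303806, plus strand: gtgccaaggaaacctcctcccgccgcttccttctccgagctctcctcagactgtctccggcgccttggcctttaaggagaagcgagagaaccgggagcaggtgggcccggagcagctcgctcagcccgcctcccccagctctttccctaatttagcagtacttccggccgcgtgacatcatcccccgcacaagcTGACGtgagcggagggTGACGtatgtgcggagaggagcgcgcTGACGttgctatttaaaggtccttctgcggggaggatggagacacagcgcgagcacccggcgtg
Ptgs2, chr1:150099781-150100080, plus strand: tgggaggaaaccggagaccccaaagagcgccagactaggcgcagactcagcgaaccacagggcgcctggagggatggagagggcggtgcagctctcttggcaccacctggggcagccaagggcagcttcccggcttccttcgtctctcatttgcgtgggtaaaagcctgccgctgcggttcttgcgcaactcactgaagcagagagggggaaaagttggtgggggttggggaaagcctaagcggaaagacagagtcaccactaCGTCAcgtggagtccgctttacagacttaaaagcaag
Nr4a3 holds 4 cores, Homer1 3, and Fos and Npas4 2 each. The 2 cores of Npas4 lie close together on opposite strands. Ptgs2 has a single core just past its start.

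The hippocampal libraries held 54092519 to 96664509 counts and the vermis libraries 23085928 to 73803508. Acss2, the targeted gene, was 12.3 ± 1.1 CPM in KO and 57.0 ± 4.35 in WT hippocampus (SD, n = 8 mice each), and 16.3 ± 3.38 and 60.3 ± 4.37 in vermis. The genotypes did not overlap in either tissue (exact two-sided permutation p = 0.000155, the smallest that 12870 splits allow). CPM is a gene's count scaled to library size, after TMM scaling. Vermis libraries from KO ethanol females F1 and F3 stood apart. F1 had the highest oligodendrocyte marker level (mean log2 CPM 8.92, the other 15 at 7.21 to 7.83) and the lowest granule neuron level (6.84). F3 was the shallowest. Marker genes of hippocampal CA pyramidal neurons averaged 5.96 to 6.86 log2 CPM in hippocampus and 0.60 to 3.51 in vermis. In bulk tissue, fewer cells of a type and less RNA per cell cannot be told apart.

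In hippocampus 3 of the 7 secreted and synaptic effectors had the highest levels per length. Nrn1, which codes for the neurite-growth protein neuritin, stood at 95.6 ± 12.1 CPM per kb (SD, n = 16), then Scg2 at 73.3 ± 8.56, Vgf at 49.9 ± 5.35 and Arc at 46.4 ± 13.6. Egr1 (36.9 ± 8.78), Jun (27.2 ± 6.07), Egr3 (24.2 ± 3.31) and Junb (22.7 ± 4.72) came next. Within this order the neighbours Vgf and Arc, Arc and Egr1, Jun and Egr3, and Egr3 and Junb differed by less than the larger SD of the pair. The other effectors lay lower, Nptx2 at 14.1 ± 3.96, Homer1 at 12.6 ± 2.36, Ptgs2 at 5.87 ± 1.33 and Inhba at 2.2 ± 0.435. Length is that of all exons of a gene together, 11976 bases for Homer1. Its long and short transcript models, compared below, have 4287 and 5713 bases, so its place in this order depends on the length used. Fos, the most used marker of recent activity, was 5.74 ± 1.93 CPM per kb and Npas4 2.23 ± 0.502. The lowest were the small Maf protein Maff (0.255 ± 0.0695) and the stress factor Atf3 (0.486 ± 0.155). In vermis the order per length began with Scg2 (74.9 ± 29.5), Nrn1 (45 ± 7.67), Jun (22.3 ± 3.13), Vgf (18 ± 10.4) and Egr1 (12 ± 3.16), followed by Dusp1 (11.6 ± 4.01), Gadd45g (11 ± 1.94), Ier2 (10.7 ± 2.3) and Fos (10.3 ± 5.48). Jun and Vgf, and Vgf and Egr1, differed by less than the larger SD, and the last 5 of these lay within 1 SD of each other. Egr2 (0.128 ± 0.129), Ptgs2 (0.173 ± 0.0937) and Fosb (0.246 ± 0.143) closed the list, and Egr2 had no count in 3 vermis libraries.

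Most of the genes were lower in vermis than in hippocampus of the same mice, and a small group was higher. By edgeR's quasi-likelihood test with the mouse as a block and Benjamini-Hochberg adjustment, 28 of 37 fell and 5 rose, where 72.6% of all 24458 genes were called (34.6% higher, 38% lower). The median log2 difference, vermis minus hippocampus, was -1.38 for the 18 nuclear factors, -1.62 for the 7 delayed effectors, -0.17 for the 11 feedback regulators and -0.03 for all genes tested. Thus 14 of 18 nuclear factors and 6 of 7 delayed effectors were called lower, against 7 of 11 feedback regulators with smaller differences. Levels of 14 of the lower genes did not overlap between the tissues. The share of all genes without overlap was not worked out, so this count has no backdrop.

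**Figure D1:**
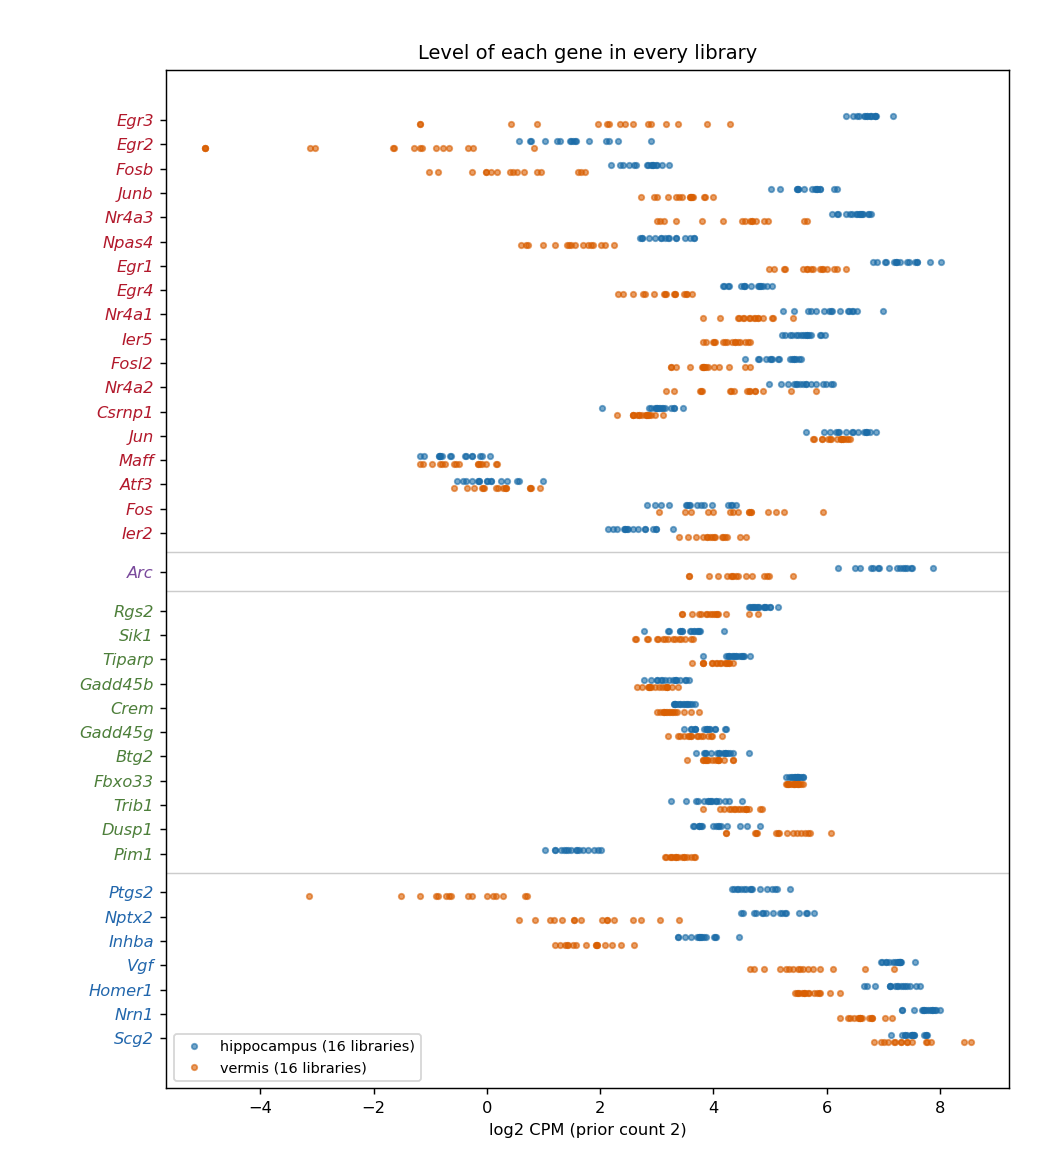
Level of each gene (log2 CPM with a prior count of 2) in 16 hippocampal and 16 vermis libraries, ordered within roles by the difference between the tissues. Ptgs2, Egr3 and Nptx2 show the largest drops from hippocampus to vermis, and Pim1 and Ier2 are the 2 genes that are higher in vermis with no overlap.

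Ptgs2, which codes for cyclooxygenase 2, showed the largest difference. Its lowest, median and highest levels were 19.9, 25.2 and 40.9 CPM in hippocampus and 0.0817, 0.687 and 1.61 CPM in vermis, a log2 difference of -5.22 ± 0.21 (SE, adjusted p = 2.04e-11, lower in 16 of 16 mice). The lowest vermis value rests on 6 counts. Egr3 was 81.1, 107 and 145 CPM in hippocampus and 0.408, 5.23 and 19.6 in vermis (log2 difference -4.48 ± 0.42, adjusted p = 4.54e-07). No vermis library reached the lowest hippocampal level of either gene. Nptx2, the AMPA receptor-clustering pentraxin, was 22.3, 34.7 and 54.9 CPM against 1.44, 3.6 and 10.5 (-3.20 ± 0.19). Egr2, an EGR factor also known from myelinating glia outside the brain, was 1.46, 2.8 and 7.42 CPM against 0, 0.394 and 1.75 (-3.19 ± 0.46). Here the ranges overlapped, although Egr2 was lower in vermis in all 16 mice. Arc, whose product removes AMPA receptors from synapses, was 73.9, 145 and 234 CPM against 11.9, 20.6 and 42.5 (-2.66 ± 0.18). Fosb was 4.52, 7.32 and 9.25 against 0.462, 1.32 and 3.28 (-2.31 ± 0.23). Npas4 had a log2 difference of -1.70 ± 0.09 (adjusted p = 1.7e-11), with no overlap. Of the other delayed effectors, the activin subunit Inhba was at -2.0 ± 0.12, Vgf at -1.62 ± 0.17, Homer1 at -1.51 ± 0.08 and Nrn1 at -1.09 ± 0.07, each lower in all 16 mice.

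AP-1 genes differed among themselves, while the EGR and NR4A families each fell as a whole. Among AP-1 genes, Fosb, Junb (-2.21 ± 0.12) and Fosl2 (-1.29 ± 0.10) fell, Jun fell slightly (-0.27 ± 0.08, in 12 of 16 mice), and Fos was higher in vermis in all 16 mice (log2 difference 0.76 ± 0.08, adjusted p = 5.79e-07). Fos had lowest, median and highest levels of 7.07, 12.5 and 21 CPM in hippocampus and 8.21, 23.2 and 61.3 CPM in vermis, ranges that overlap. The 3 NR4A genes all fell, by log2 differences of -1.43 ± 0.11 (Nr4a1), -1.23 ± 0.13 (Nr4a2) and -2.16 ± 0.16 (Nr4a3). The 4 EGR genes all fell too, Egr1 by -1.63 ± 0.15 and Egr4 by -1.53 ± 0.12. Ier2 and Ier5 are related immediate early genes and went in opposite directions, Ier2 at 1.38 ± 0.08 and Ier5 at -1.33 ± 0.09.

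Besides Fos, the genes that were higher in vermis were Pim1, Ier2, Dusp1 and Trib1. Pim1, a growth-promoting serine kinase, was 2, 2.86 and 4.04 CPM in hippocampus and 8.81, 10.3 and 12.7 CPM in vermis (log2 difference 1.87 ± 0.08, adjusted p = 7.09e-13). Ier2 was 4.39, 5.79 and 9.7 CPM against 10.5, 15.9 and 23.8. Neither gene overlapped between tissues. Dusp1 was higher in vermis by 1.15 ± 0.08 on the log2 scale in all 16 mice, and Trib1, a pseudokinase that targets proteins for degradation, by 0.50 ± 0.10 in 14 of 16. Feedback regulators that fell did so by less. Rgs2, which shortens G-protein signals, was at -0.85 ± 0.08 and the salt-inducible kinase Sik1 at -0.37 ± 0.07. Tiparp (-0.31), Gadd45b (-0.21), Crem (-0.18), Gadd45g (-0.17), Btg2 (-0.12) and the nuclear protein Csrnp1 (-0.29) overlapped between tissues. Scg2, Fbxo33, Maff and Atf3 did not pass the test. Their log2 differences were -0.04 ± 0.15, -0.04 ± 0.03, 0.12 ± 0.13 and 0.18 ± 0.14.

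The other genes of the pathway were compared by region too, where 72.6% of all genes were called (34.6% higher, 38% lower). Of 43 genes of the signalling pathway upstream (calcium channels, NMDA receptor subunits, CaM kinases, MAP kinases, CREB and its partners), 15 were higher and 24 lower in vermis, with a median log2 difference of -0.33. Camk2a (-4.08) and the NMDA receptor subunit Grin2b (-3.93) were furthest down and the ribosomal S6 kinase Rps6ka1 (2.89) and Camk2d (2.27) furthest up. Of 27 further activity-induced genes tested, 11 were higher and 14 lower, from Rasd1 (-3.34) and Plk2 (-2.94) to Dusp5 (2.15).

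Some of these loci make products with opposing functions, which gene counts add together. Homer1 has a short model with the structure of HOMER1A, the induced form that lacks the coiled coil. Its last exon (GRCm39, chromosome 13, 93492448 to 93496970) runs 4383 bases past the end of the shared exon at 93492587. Counts of the short model were 85.3 ± 11.8% of those of the long model in hippocampus (SD, n = 16, range 56.0 to 99.7) and 73.9 ± 4.81% in vermis (63.4 to 79.8). Reads of shared exons count for both models, so these shares compare libraries and are not a ratio of molecules. The share was lower in vermis in 12 of 16 mice, by a mean of -11.4 points (SD 9.62, exact two-sided permutation p = 0.000671, adjusted 0.00604 over 9 tests). In WT hippocampus the short model stood at 73.9 ± 13.1% after saline and 90.0 ± 2.66% after ethanol. The saline values reached from 56.0 to 87.1 and the ethanol values from 87.7 to 93.8, so the groups did not overlap (exact p = 0.0286, the smallest for 4 against 4, adjusted 0.0857). KO ethanol vermis, at 69.6 ± 2.87%, also lay below WT ethanol vermis, at 77.6 ± 1.88% (exact p = 0.0286, adjusted 0.0857). Neither passed after adjustment. Crem has 39 models, of which 7 start far inside the gene (GRCm39, 3281078 to 3281769), as the inducible repressor ICER does. Other models also start inside the gene, upstream of these 7, and were not counted here. Reads of the 7 were not separated from those of the longer forms.

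In hippocampus the exposure effect on Npas4 differed between the genotypes. The gene (ENSMUSG00000045903) lies on the minus strand of chromosome 19 in GRCm39, with its first listed exon at 5034383 to 5035124. Npas4 levels in M1, M3, F1 and F3 were 9.11, 12.6, 12.6 and 8.87 CPM in WT saline and 7.76, 6.51, 7.21 and 6.61 CPM in WT ethanol. All WT ethanol mice lay below all WT saline mice. In KO the order was the opposite, with 9.21, 6.63, 8.35 and 8.43 CPM after saline and 10.1, 11.2, 12 and 10.1 CPM after ethanol, again with no overlap. Group means were 10.8 ± 2.1, 7.02 ± 0.582, 8.16 ± 1.09 and 10.9 ± 0.905 CPM (SD, n = 4). The difference of the exposure effect, KO minus WT, was 1.05 ± 0.19 on the log2 scale (adjusted p = 0.0493 by edgeR's quasi-likelihood test). Npas4 was 1 of 37 genes called for this interaction, where 0.175% of 23394 genes were called (0.0385% higher). Behind Npas4, at an unadjusted p under 0.05 there were 6 more higher and 1 lower (4.25% and 5.69% of all genes, 9.94% in all), among them Rgs2 (0.34), Ptgs2 (0.59), Nr4a3 (0.38) and Fos (0.75). The Npas4 call was lost in 15 of 22 alternative settings, each without 1 of 15 of the 16 hippocampal libraries. Over all 22 alternatives the adjusted p ran from 1.04e-05 to 0.122 and the log2 difference from 0.94 to 1.14.

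**Figure D2:**
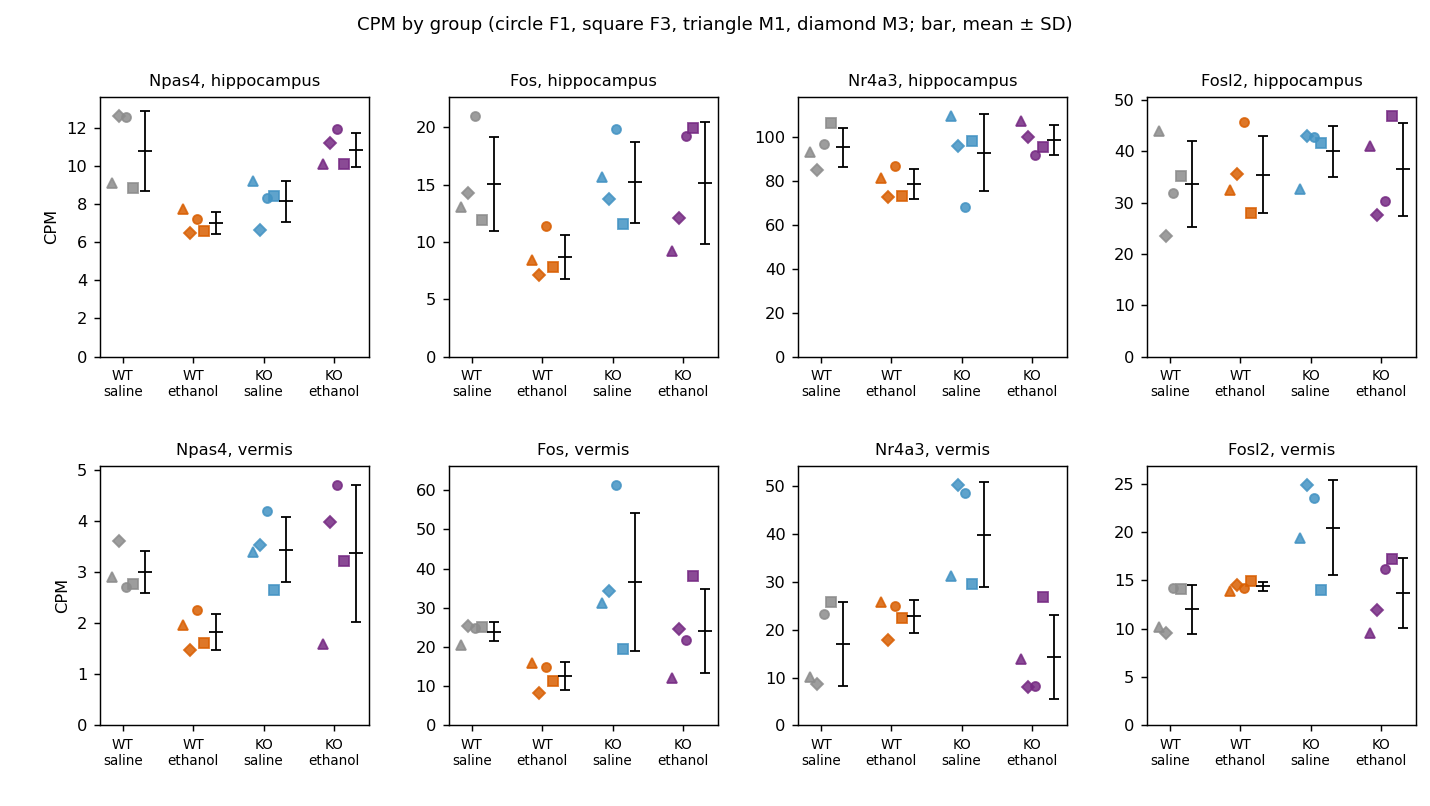
CPM of Npas4, Fos, Nr4a3 and Fosl2 in hippocampus (top) and vermis (bottom) by condition, each point 1 library, with the mean and SD of 4 mice. In hippocampus Npas4 is lower after ethanol in WT and higher after ethanol in KO with no overlap in either genotype, and in vermis Fosl2 and Nr4a3 are highest in KO saline.

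A list of 14 genes induced by glucocorticoid hormones had interaction values of the opposite sign. All 14 were negative in hippocampus, 5 of them called, with a median of -0.65 on the log2 scale. The called genes were Tsc22d3 (-0.91), Nfkbia (-0.66), Hif3a (-2.04), Sgk1 (-1.18) and Per1 (-0.84). The summed level of the list was 896 to 955 CPM in WT saline, 1005 to 1097 in WT ethanol, 995 to 1104 in KO saline and 748 to 880 in KO ethanol, so WT ethanol lay above and KO ethanol below all WT saline libraries. Markers of other cells moved in the same contrast without a call: 12 of 12 choroid plexus, 10 of 10 microglial and 10 of 10 striatal markers were positive (medians 1.26, 0.30 and 0.80), and 9 of 9 dentate granule neuron markers were negative (-0.59). The part of these lists in the Npas4 result was not tested.

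Within WT hippocampus, ethanol against saline, none of the 37 genes was called by edgeR, and 0% of 23394 genes were. At an unadjusted p under 0.05, 1 was higher and 9 were lower, against 4.87% and 5.63% of all genes (10.5% in all). DESeq2 called 3, Fos, Egr2 and Npas4, all lower. The share of all genes that DESeq2 called is not given here or below, so its counts have no backdrop. The smallest p belonged to Npas4 (log2 fold change -0.63 ± 0.13, adjusted p = 0.208), Gadd45b (-0.42 ± 0.12, 0.289), Fos (-0.80 ± 0.23, 0.313) and Egr2 (-1.09 ± 0.33, 0.319). Fos stood at 13, 14.3, 21 and 11.9 CPM in WT saline and 8.41, 7.07, 11.4 and 7.79 CPM in WT ethanol, with every ethanol value below every saline value. The median log2 fold change was -0.15 over nuclear factors, -0.16 over feedback regulators and 0.01 over delayed effectors, beside 0.01 over all genes. In KO hippocampus, ethanol against saline, 0 of 37 were called by edgeR and by DESeq2 (0.0513% of all genes by edgeR). At an unadjusted p under 0.05 there was 1, Npas4 (0.42 ± 0.13, adjusted p = 0.375), against 9.31% of all genes (4.11% higher). Sik1 (-0.36), Gadd45b (-0.22) and Rgs2 (0.14) followed, at adjusted p of 0.57, 0.577 and 0.586.

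KO against WT in saline-exposed hippocampus called 0 of 37 by edgeR and by DESeq2 (0.00427% of all genes by edgeR). There were 2 at an unadjusted p under 0.05, Npas4 (-0.41) and Rgs2 (-0.20), both lower, against 8.85% of all genes (4.23% lower). Ptgs2 (-0.29) and Atf3 (0.48) had the next smallest p. In ethanol-exposed hippocampus edgeR called 0 of 37 (0.171% of all genes) and DESeq2 called 2, Fos and Npas4. At an unadjusted p under 0.05, 5 were higher and 1 lower (5.32% and 4.6% of all genes, 9.92% in all). Npas4 was 0.63 ± 0.13 higher in KO (adjusted p = 0.0776), Fos 0.77 ± 0.23 (0.265), Fbxo33 0.18 ± 0.05 (0.265) and the anti-proliferative regulator Btg2 0.41 ± 0.13 (0.287). Fos in KO ethanol was 9.21, 12, 19.2 and 20 CPM, so M1 overlapped the WT ethanol range. The 4 hippocampal contrasts share groups in pairs, so these values are given side by side and are not independent.

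**Figure D3:**
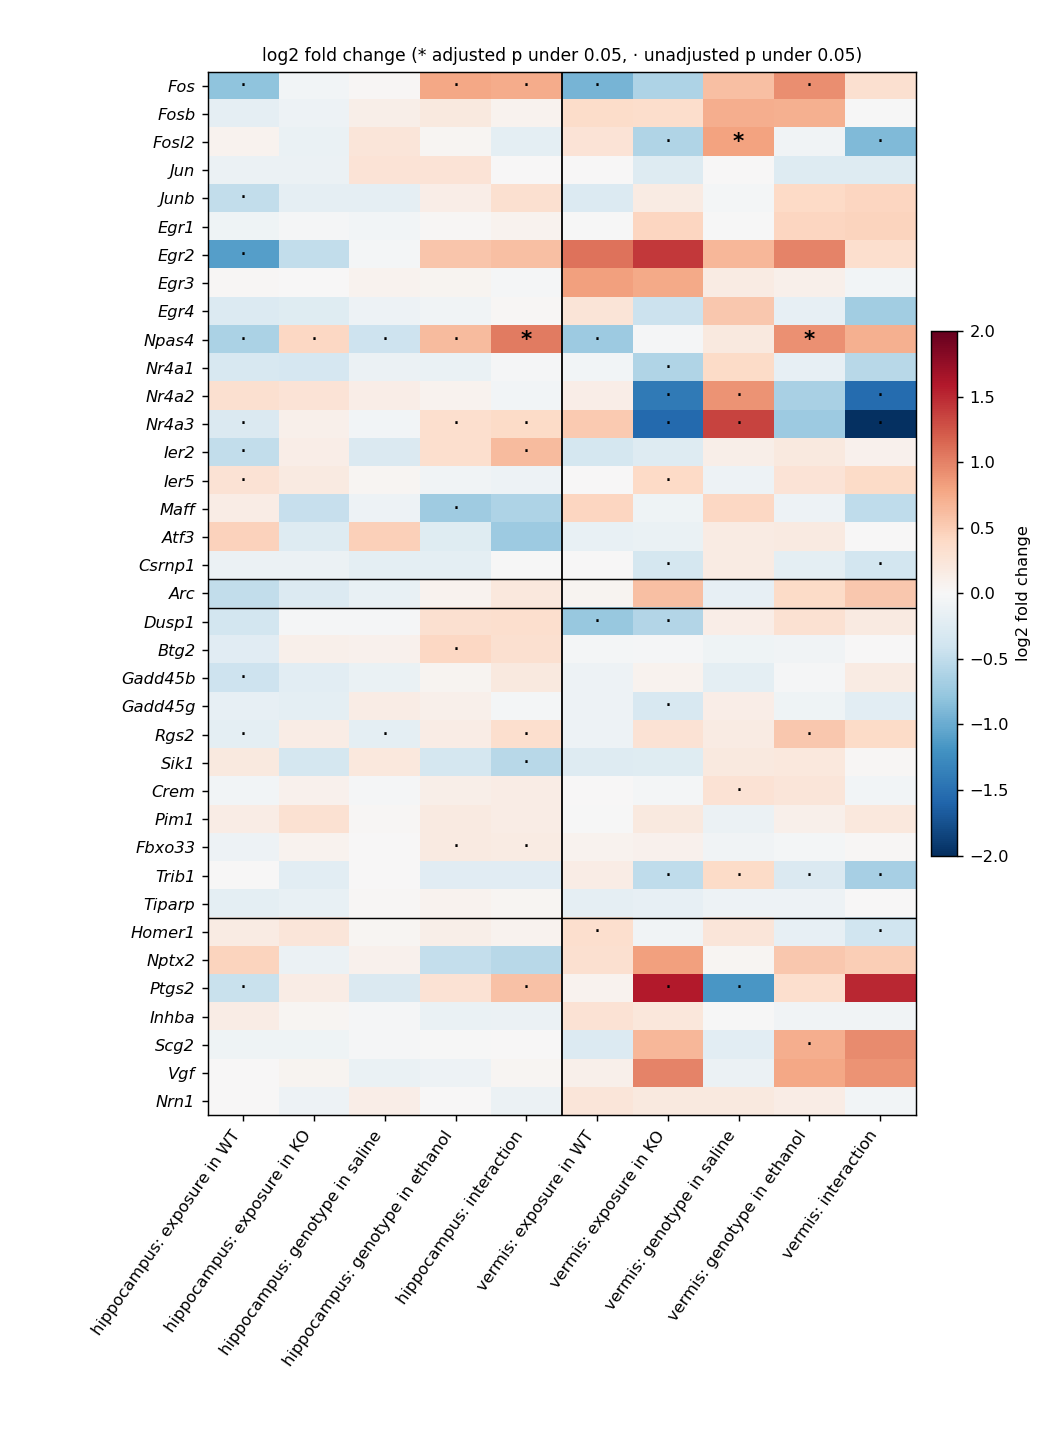
Log2 fold change of each gene in 5 contrasts per tissue, grouped by role, with a star for an adjusted p under 0.05 and a dot for an unadjusted p under 0.05. There are 3 stars, at Npas4 in the hippocampal interaction, Fosl2 in vermis genotype under saline and Npas4 in vermis genotype under ethanol. The colour scale ends at 2 in both directions.

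In vermis the genes called were Fosl2 and Npas4, 1 in each of the genotype contrasts. Fosl2 (ENSMUSG00000029135, plus strand of chromosome 5, first listed exon at 32293145 to 32294149 in GRCm39), an AP-1 partner of the Jun proteins, was higher in KO than in WT after prenatal saline, 1 of 37 genes where 4.91% of 22441 were called (4.63% higher). Without adjustment, 5 were higher and 1 lower at p under 0.05 (9.99% and 4.06% of all genes, 14% in all). Its levels in M1, M3, F1 and F3 were 10.1, 9.51, 14.2 and 14.1 CPM in WT saline and 19.3, 24.9, 23.5 and 14 CPM in KO saline. Only F3 of KO saline fell within the WT range. The log2 fold change was 0.80 ± 0.19 (adjusted p = 0.019), with means of 12 ± 2.51 and 20.4 ± 4.9 CPM (SD, n = 4). In the same contrast 12 of the 14 glucocorticoid-induced genes were positive, 4 of them called, and their part was not tested. The Fosl2 call was lost without WT saline M1 or M3, without KO saline M1, M3 or F1, without the filter on low counts and in a fit of the compared groups alone, and the adjusted p over 24 alternatives ran from 0.000536 to 0.118. In the ethanol groups Fosl2 was 14.4 ± 0.469 CPM in WT and 13.7 ± 3.58 in KO.

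Nr4a3 in vermis, not called by edgeR, stood at 10.1, 8.73, 23.4 and 25.8 CPM in WT saline, 25.8, 17.9, 25 and 22.6 in WT ethanol, 31.3, 50.3, 48.6 and 29.5 in KO saline and 13.9, 7.99, 8.27 and 26.8 in KO ethanol. All KO saline values lay above the other 3 groups. KO against WT in saline gave a log2 fold change of 1.36 ± 0.39 (adjusted p = 0.0735), ethanol against saline in KO -1.56 ± 0.39 (0.227), and the interaction -2.08 ± 0.55 (0.233). DESeq2 called it in all 3. Trib1 (0.38) and Nr4a2 (0.90) had the next smallest p for genotype in saline, where 15 of 18 nuclear factors had a positive fold change, with a median of 0.30 beside -0.02 over all genes. That contrast was lopsided over all genes too, with 1038 called higher and 64 lower.

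In ethanol-exposed vermis Npas4 was higher in KO, again 1 of 37, where 7.53% of all genes were called (5.74% higher). Before adjustment, 4 were higher and 1 lower at p under 0.05 (15.2% and 10.3% of all genes, 25.5% in all). It stood at 1.96, 1.48, 2.26 and 1.62 CPM in WT ethanol and 1.59, 3.99, 4.71 and 3.21 CPM in KO ethanol, so that KO M1 lay inside the WT range. The log2 fold change was 0.91 ± 0.26 at an adjusted p of 0.04997, which is at the threshold. It was lost in 19 of 24 alternatives, with an adjusted p of up to 0.276 and a log2 fold change of 0.62 without both KO ethanol F1 and F3. With DESeq2 the adjusted p was 0.0125. In this contrast all 14 glucocorticoid-induced genes were negative, 7 of them called, and all 10 microglial markers were positive, 3 of them called, and 7 of 8 pyramidal markers were positive. Their part in the Npas4 result was not tested. Fos (0.93), Rgs2 (0.54) and Trib1 (-0.28) had the next smallest p, at adjusted p of 0.121, 0.175 and 0.179.

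Ethanol against saline in WT vermis called 0 of 37 by edgeR and by DESeq2 (0.00446% of all genes by edgeR), and 1 higher and 3 lower passed an unadjusted p under 0.05 (2.46% and 2.86% of all genes, 5.32% in all). Dusp1 (-0.76 ± 0.27), Npas4 (-0.73 ± 0.26), Fos (-0.93 ± 0.34) and Homer1 (0.33 ± 0.13) had the smallest p, all at an adjusted p of 0.905. Fos in WT vermis was 20.4, 25.3, 24.7 and 25.2 CPM after saline and 15.8, 8.21, 15 and 11.3 CPM after ethanol, without overlap. In KO vermis edgeR called 0 of 37 (0.0891% of all genes) and DESeq2 3, Nr4a2, Nr4a3 and Trib1. At an unadjusted p under 0.05, 2 were higher and 8 lower (7.67% and 5.66% of all genes, 13.3% in all). Trib1 (-0.51 ± 0.13, adjusted p = 0.221), Nr4a2 (-1.41 ± 0.35, 0.221), Nr4a3 and Fosl2 (-0.60 ± 0.19, 0.299) led. Without KO ethanol F3, 4 genes were called lower, Nr4a1, Nr4a2, Nr4a3 and Trib1. Without both F1 and F3, Nr4a1 alone was. The vermis interaction called 0 of 37 by edgeR (0.107% of all genes), with 6 at an unadjusted p under 0.05, all lower (5.24% of all genes lower, 11.2% in all). DESeq2 called Nr4a3 and Trib1. Trib1 (-0.66), Nr4a3, Fosl2 (-0.88) and Nr4a2 (-1.54) had the smallest p.

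The medians of delayed effectors and nuclear factors had opposite signs in KO vermis. The median log2 fold change of ethanol against saline was 0.67 over the 7 delayed effectors, 6 of them positive, and -0.20 over the 18 nuclear factors, beside 0.00 over all genes. The median of the delayed effectors was 0.33 without KO ethanol F1, 0.385 without KO ethanol M3 and at most 0.88 without any other single library. No delayed effector was called. Markers of other cell types moved in the same contrast. Of 8 CA pyramidal markers tested, 7 had a positive fold change (median 1.27), all 10 microglial and all 10 oligodendrocyte markers were positive (medians 0.47 and 0.60), and all 10 granule and all 10 Purkinje markers were negative (-0.36 and -0.38). No marker of these 5 lists was called.

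Across the 16 vermis libraries, with group means removed, the mean level of the delayed effectors tracked these markers. Pearson's r was 0.946 with pyramidal markers (rho 0.935), -0.887 with granule markers and 0.903 with microglial markers. Without KO ethanol F1 and F3 the values were 0.936, -0.852 and 0.855 over 14 libraries. The summed level of 9 pyramidal markers was 71 to 124 CPM in WT saline, 58 to 130 in WT ethanol, 65.9 to 121 in KO saline and 71.8 to 246 in KO ethanol vermis, and 791 to 1423 in hippocampus. Wfs1 alone stood at 38.0 to 58.8 CPM in vermis (median 46.6), so this 1 gene made up much of the vermis sums. Other markers varied more, such as Hs3st4 at 0.481 to 34.9 CPM. Spink8, a CA1 marker, had no count in 4 of 16 vermis libraries, and the other 8 were detected in all 16. The part of these cells in the values of the delayed effectors was not tested. For the mean of the nuclear factors r was 0.556 with pyramidal, -0.420 with granule and 0.504 with microglial markers. Without F1 and F3 these were 0.818, -0.639 and 0.889, so this mean tracked the markers too. The pyramidal r was 0.356 without the 2 libraries whose marker level, with group means removed, lay farthest from its median. Taken singly, 8 of the 18 nuclear factors and all 7 delayed effectors had a positive r with pyramidal markers. The medians were -0.099 and 0.794, and single nuclear factors ran from -0.846 to 0.826. In hippocampus the delayed effectors had r = 0.809 with pyramidal markers, and 0.433 without the 2 libraries farthest from the marker median. These points share library, depth and dissection.

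**Figure D4:**
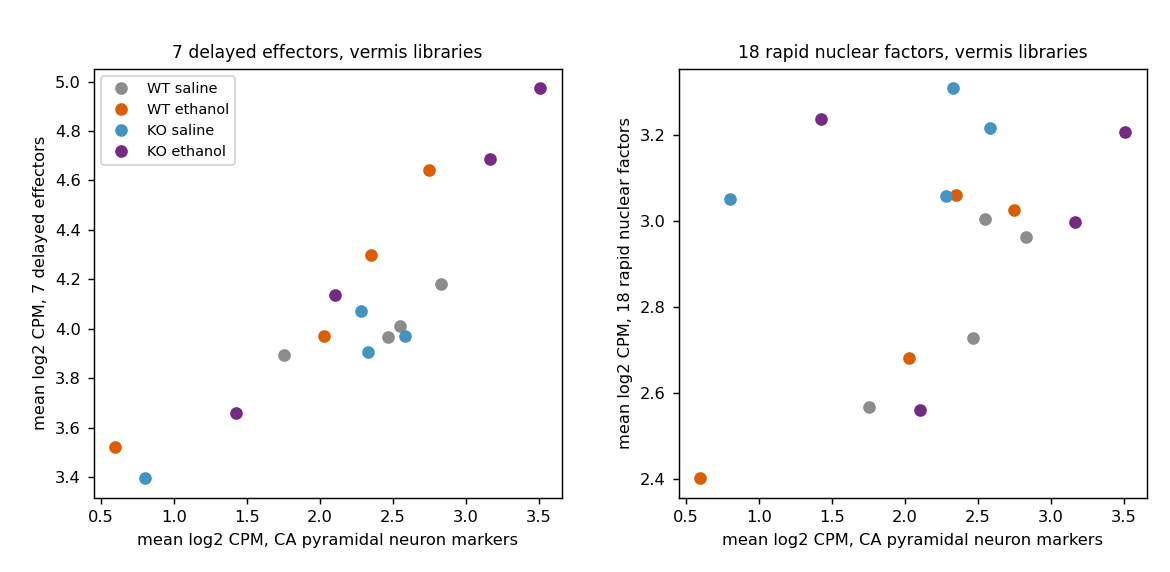
Mean log2 CPM of the 7 delayed effectors (left) and the 18 nuclear factors (right) against that of CA pyramidal neuron markers in the 16 vermis libraries, coloured by condition. The left points follow a line (r = 0.946 with group means removed) and the right points scatter more (r = 0.556). Without KO ethanol F1 and F3 these were 0.936 and 0.818.

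The difference of each contrast between the tissues was tested within mice. No gene of the 37 was called by edgeR in any of the 4 tests. edgeR called 0% of all genes for exposure in WT, 0.00409% for exposure in KO, 3.36% for genotype in saline and 2.39% for genotype in ethanol, and DESeq2 called 0, 2, 1 and 3 of the 37. At an unadjusted p under 0.05, exposure in WT gave 1 lower (2.61% of all genes lower, 4.98% in all). Exposure in KO gave 1 higher and 4 lower (2.5% and 3.52%, 6.03% in all), genotype in saline 3 higher (7.32%, 12.5% in all), and genotype in ethanol 1 higher and 4 lower (7.21% and 6.84%, 14% in all). For exposure in KO, Nr4a2 and Nr4a3 had vermis minus hippocampus differences of -1.67 ± 0.37 (adjusted p = 0.531) and -1.74 ± 0.44 (0.69), and both were the genes that DESeq2 called. Dusp1 (-0.66) and Ptgs2 (1.53) followed. For genotype in saline Nr4a3 was at 1.40 ± 0.43 (0.131), ahead of Npas4 (0.59), Crem (0.30) and Fos (0.48). For genotype in ethanol Btg2 was at -0.50 ± 0.14 (0.068), Fbxo33 at -0.24 (0.16), Nr4a3 at -1.19 (0.231) and Sik1 at 0.50. Btg2 passed without mouse M3 of WT saline (adjusted p = 0.0442) or of WT ethanol (0.00333). For exposure in WT the smallest p belonged to Sik1 (-0.46), Fbxo33 (0.17), Nr4a3 (0.85) and Dusp1 (-0.43), all at an adjusted p of 0.972.

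Sex, fitted over the 4 conditions, called none of the 37 in hippocampus by edgeR (0.0769% of all genes), with 1 higher and 6 lower in males at an unadjusted p under 0.05 (3.19% and 4.45% of all genes, 7.65% in all). Of 18 nuclear factors, 16 had lower values in males (median log2 difference -0.13, beside -0.01 over all genes). Trib1 (-0.39 ± 0.11, adjusted p = 0.454), Rgs2 (-0.16), Ptgs2 (0.33) and Scg2 (-0.19) had the smallest p. In vermis 0 were called (0.0535% of all genes) and 2 passed an unadjusted p under 0.05, Atf3 (-0.61 ± 0.18) and Gadd45g (-0.24 ± 0.10), both lower, against 3.16% of all genes (1.86% lower). DESeq2 called 0 in both tissues.

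The genes differed widely in how much they varied between mice of a group. Fbxo33, an F-box protein, was the steadiest, at 38.7 to 48.1 CPM over all hippocampal libraries and 38.9 to 47.8 over all vermis libraries, with a within-group SD of 0.0593 and 0.0827 on the log2 scale. The median SD over all genes was 0.215 and 0.225. Egr2 (0.51), Nr4a1 (0.462), Arc (0.429), Atf3 (0.399) and Fos (0.393) varied most in hippocampus. In vermis Egr2 (1.79) and Egr3 (1.70) did, and Egr3 spanned 48.0-fold from its lowest to its highest library. Fos spanned 2.97-fold in hippocampus and 7.47-fold in vermis, and the highest vermis value, 61.3 CPM, was KO saline F1.

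Covariation between mice was described within each tissue. In hippocampus, with group means removed, the mean of the nuclear factors tracked Arc with r = 0.911 (rho 0.938, n = 16). Without the 2 libraries farthest from the median of Arc, r was 0.882. The closest pairs were Nr4a1 with Arc (0.950), Junb with Egr4 (0.939) and Egr1 with Nr4a1 (0.911). Jun went the other way, at -0.791 with Egr2 and -0.756 with Egr1. Fos was closest to the feedback regulators Dusp1 (0.866) and Trib1 (0.851), then Arc (0.729). In vermis Fos stayed close to Dusp1 (0.925) and was positive with Tiparp (0.797), Nr4a1 (0.769), Nr4a2 (0.699) and Npas4 (0.691), but r was -0.432 with Arc, -0.599 with Egr3 and -0.614 with Ptgs2. Without KO ethanol F1 and F3 these 3 were -0.453, -0.694 and -0.668, and Dusp1 0.911. In a further check the 2 libraries farthest from the median of the gene paired with Fos were left out, chosen for each pair separately. The 3 values were then -0.304, -0.330 and -0.313, and Dusp1 0.880. Named after their values were seen, 2 sets stood out in vermis. One held Fos, Dusp1, Ier2, Jun, the NR4A genes and Tiparp, which had negative mean r with the delayed effectors, and the other Arc, Egr1, Egr2, Egr3, Junb, Ier5 and Rgs2, with positive mean r. The closest vermis pairs were Egr2 with Egr3 (0.950) and Junb with Egr1 (0.940), and the most opposed was Ier2 with Vgf (-0.892). Delayed effectors were positively related in 19 of 21 pairs in vermis (median r 0.559) and in 10 of 21 in hippocampus (median -0.041). Arc too tracked cell markers in vermis, with r = 0.786 for pyramidal, 0.774 for microglial and -0.629 for granule markers. In hippocampus these values for Arc were 0.462, 0.169 and -0.369. Arc also had r = 0.665 with striatal, -0.662 with astrocyte and -0.580 with endothelial markers there, and -0.496 with log2 depth. These are descriptions over libraries of whole tissue and share depth and dissection, and no test was made.

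**Figure D5:**
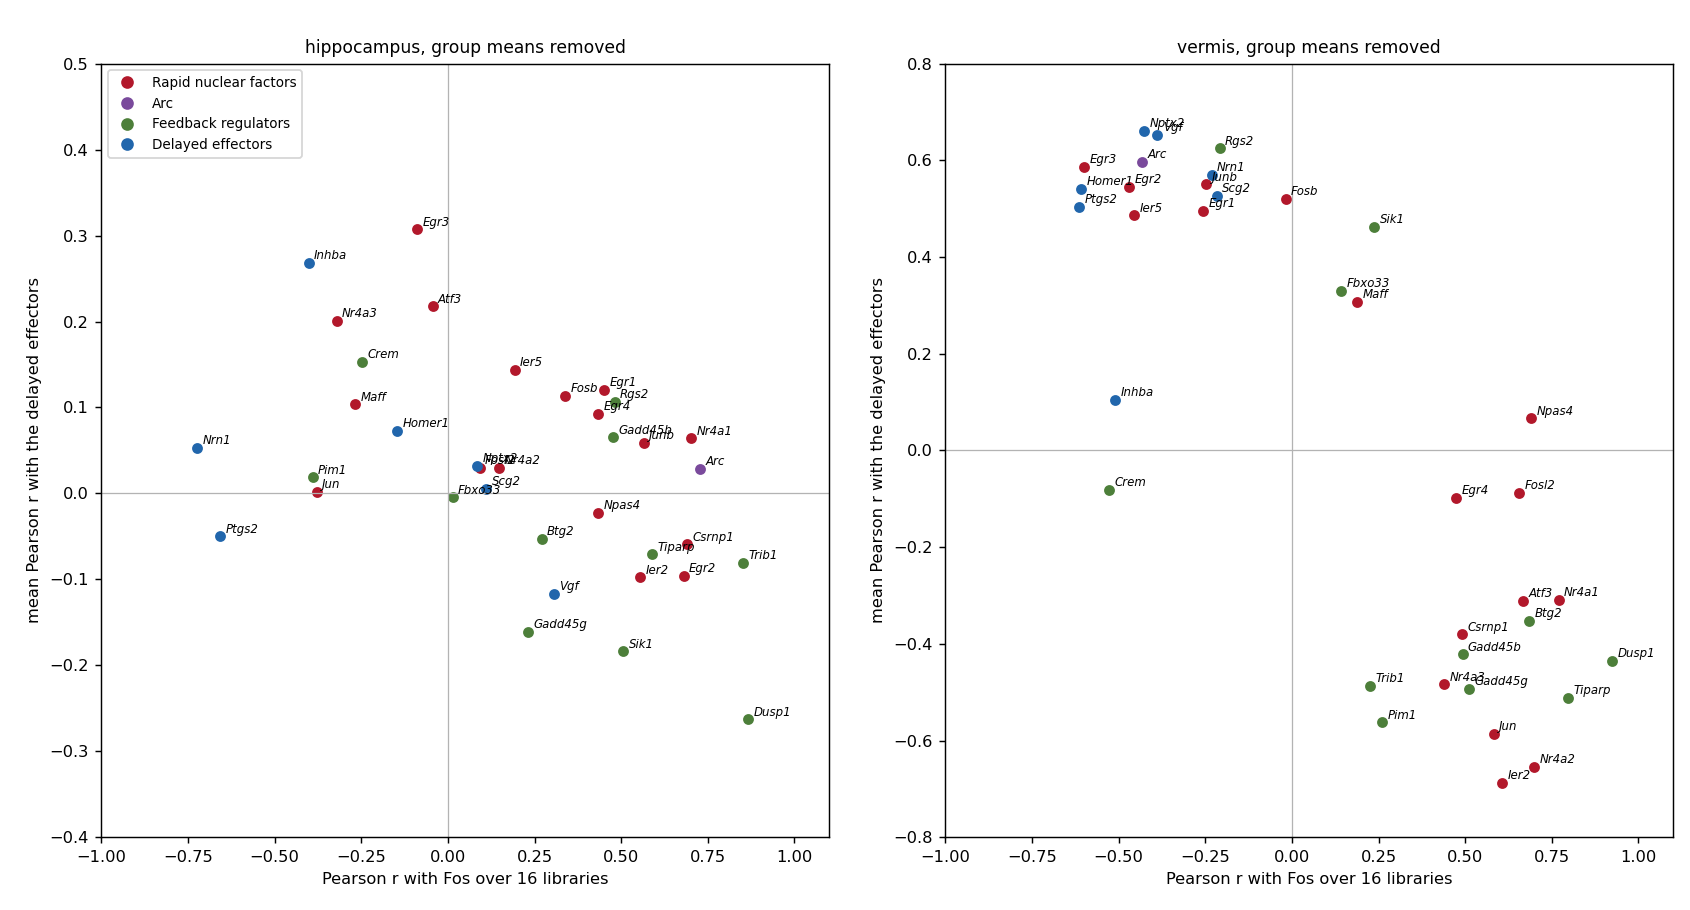
For each gene, Pearson r with Fos (horizontal axis) against mean r with the 7 delayed effectors (vertical axis, whose range differs between panels), over 16 libraries per tissue with group means removed. In vermis Dusp1, Tiparp and the NR4A genes sit at the lower right and Arc, Egr3 and the delayed effectors at the upper left.

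Other genes of the pathway were described in the same contrasts. Of 27 further activity-induced genes, 5 rose in KO saline vermis against WT saline (4.91% of all genes called), namely Klf2 (0.61), the neurotrophin Bdnf (0.44), the ERK phosphatase Dusp6 (0.46), Klf4 (0.65) and Arl4d (0.49). In KO against WT after ethanol 6 fell and 1 rose (7.53% of all genes called), led by the clock gene Per1 (-0.98), Klf2 (-0.56), Dusp6 (-0.54) and Bdnf (-0.43), with Lonrf3 (0.36) higher. With ethanol in KO 3 fell (0.0891% of all genes called), Per1 (-1.06), Klf2 (-0.81) and Coq10b (-0.51). The interaction was negative for Per1 (-1.40), Dusp6 (-1.0), Klf2 (-1.18) and Bdnf (-0.87), each at an adjusted p of 0.0275. In hippocampus Per1 was the 1 called, for genotype in ethanol (-0.71) and the interaction (-0.84). Of 43 upstream signalling genes, the histone deacetylase Hdac4 (-0.24) fell with genotype in saline vermis and the EGR corepressor Nab1 (-0.29) with genotype in ethanol vermis, and none was called in the other contrasts within a tissue. Per1 and Errfi1 also belong to the glucocorticoid list. In vermis that list had a negative interaction for 14 of 14 genes, 6 called (median -0.73) beside the negative values of Bdnf, Dusp6 and Klf2. The part of this list in those values was not tested.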

How the data were processed

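The data are polyA RNA-seq gene counts of 32 libraries. The authors deposited whole-number counts per gene and per transcript model. For these counts the submitters' processing notes name GRCm39, STAR 2.7.10a for alignment, featureCounts 2.0.6, cutadapt 5.0, bcl2fastq and DESeq2. Whether counting used strand is not given in the sources used here. Of counts from 1 to 20, 87.9% were even, so mates of a pair were counted separately.

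Counts were fitted with edgeR 4.0.16 and limma 3.58.1 in R 4.3.3 (filterByExpr, TMM scaling, robust quasi-likelihood F-tests, Benjamini-Hochberg adjustment over all genes tested with a threshold of 0.05). Each tissue's 16 libraries were fitted together with sex as a covariate, on 23394 genes in hippocampus and 22441 in vermis. All 4 conditions share 1 estimate of the spread. Regions were compared on 24458 genes with the mouse as a block, since the labels give each library's mouse. Log2 CPM used a prior count of 2, and SE is that of the fit. Alternatives were RLE scaling, no filter on low counts, no sex term, a replicate block, an offset for gene length, the compared groups alone, each library left out, and DESeq2 1.42.0. Leaving out KO ethanol vermis F1 and F3 together was added after the data were seen. The fit was also run on simulated counts with the same spread setting for every gene, unlike these data, and its outcome is not used here. Figures used Python 3.11.15 and matplotlib 3.10.9.

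The members, their roles and the other lists were chosen with earlier results of these data known. Genes are named with values per library if called, otherwise up to 4 with the smallest p per contrast, up to 6 per direction between regions and up to 4 per pathway list. Transcript reads that overlap several models count for each. Promoters come from RefSeq on GRCm38.p6, and their coordinates are not comparable with GRCm39. A count in an overlapping or antisense gene could add to a member.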

Additional observations from a re-analysis of the deposited data

Results flagged for a closer look

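The exposure effect on Npas4 in hippocampus differed between WT and KO, with an interaction of 1.05 on the log2 scale (edgeR adjusted p = 0.0493). A single library lay far from the other 3 of its group in 13 of 296 gene and group combinations (4.39%, where chance gives about 1 in 20 by Dixon's test). In vermis these were Fos in WT saline M1 (20.4 CPM), Egr4 in WT ethanol F1 (5.92 CPM) and in KO saline F3 (8.84 CPM), Csrnp1 in WT saline F3 (5.94 CPM) and Tiparp in WT saline F1 (16.4 CPM). In WT hippocampus they were Fosb in saline M3 (5.05 CPM), Ptgs2 in saline F1 (22.4 CPM) and Egr1 in ethanol F1 (193.3 CPM). In KO hippocampus, saline M1 was low for Fosl2 (32.6 CPM) and Jun (81.0 CPM), saline F1 was low for Egr4 (19.1 CPM), saline F3 was high for Fbxo33 (45.2 CPM), and ethanol F1 was low for Nrn1 (160.1 CPM). KO saline hippocampus M1 was the library with 2 such genes, and the other 11 libraries had 1 each.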

How the results depend on the processing

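The region result moved least: 30 to 33 of the 37 genes were called in all 21 alternatives, including fits without the mouse block (32) and without each mouse. Acss2 was lower in KO in every alternative run. The values of the genes called within a tissue kept their sign in every alternative run. These were Npas4 in the hippocampal interaction, and Fosl2 and Npas4 in the vermis genotype contrasts. Other gene values, such as the region differences of Scg2 and Fbxo33, were not all followed in the alternatives. Untested class medians near 0 did change sign. Among them were the hippocampal interaction medians of nuclear factors (-0.07 to 0.13) and delayed effectors (-0.09 to 0.07). Another was the median of the delayed effectors for exposure in WT vermis (-0.06 to 0.32). Counts of called genes within a tissue were small and moved. In hippocampus, testing without the filter on low counts called 11 for exposure in WT, 2 for exposure in KO, 1 for genotype in saline, 6 for genotype in ethanol, 5 for the interaction and 10 for sex, where the filtered fit called 0, 0, 0, 0, 1 and 0. DESeq2 called 3 for exposure in WT and 2 for genotype in ethanol. In vermis it called 3 for exposure in KO, 2 for genotype in saline and 2 for the interaction. The unfiltered vermis fit called 0 for genotype in saline. Genotype in ethanol in vermis went from 1 to 0 with RLE scaling, the replicate block, the length offset, the compared groups alone, or without KO ethanol F1 and F3. Without those 2 libraries exposure in KO called 1 and genotype in saline 2. Between tissues, DESeq2 called 2 for exposure in KO, 1 for genotype in saline and 3 for genotype in ethanol, and RLE scaling 1 for the last. No share of all genes called is given here for any alternative, so these counts have no backdrop. Without the filter, adjusted p fell at nearly the same fold change. For Fos and exposure in WT hippocampus the log2 fold change was -0.803 with the filter and -0.808 without it. The edgeR adjusted p was 0.313 and 4.6e-09. The cause of these moves was not tested.

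Leaving out 1 library at a time gave 0 to 1 called genes for genotype in ethanol in hippocampus, 0 to 1 for the hippocampal interaction, 0 to 4 for exposure in KO vermis (4 without KO ethanol F3), 0 to 3 for genotype in saline vermis (3 without KO ethanol F1) and 0 to 4 for genotype in ethanol vermis (4 without KO ethanol F3). Leaving out 1 mouse gave 0 to 1 for genotype in ethanol between tissues. No label says that F1, F3, M1 and M3 pair mice across conditions. Same-labelled libraries had mean correlations of -0.004 to 0.116 after group means were removed, and 0 to 3 of 4 matched their own label best. Whether same-labelled mice share a batch was not tested. The replicate block changed the count of called genes in 1 contrast, from 1 to 0 for genotype in ethanol in vermis. The shallowest library held 23085928 counts, and depth limits the values of Egr2, Ptgs2 and Maff in vermis most.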
